A study of Mus musculus with 12 samples.

Results

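The nuclear-encoded genes of the mitochondrial respiratory chain and ATP synthase were followed through glutamine withdrawal in a p53-null and a wild-type fibroblast line. The members were the entries of the expression table whose symbols begin with Nduf followed by a, b, c, s or v (complex I), Uqcr (complex III), Cox4 to Cox8 (complex IV) or Atp5 (complex V), leaving out names that end in -ps. The rule used names and no measured value, and it found 88 of the 19439 entries, 46 for complex I, 8 for complex III, 17 for complex IV and 17 for complex V. By their known roles, 8 of the complex I names are assembly factors rather than subunits, and Atp5s and Atp5sl are not subunits of the synthase. Complex II subunits, cytochrome c1 and the subunits encoded in mitochondrial DNA lie outside the rule, and the last of these were not analysed here.

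Complexes I, III and IV pass electrons taken from NADH down to oxygen and pump protons out of the mitochondrial matrix, and complex V, the ATP synthase, uses the return flow of protons to make ATP. Each complex joins subunits from the nuclear genome with subunits from mitochondrial DNA (of the chain, only complex II is wholly nuclear), so many nuclear genes have to supply subunits in matching amounts. Glutamine is a major carbon source for the tricarboxylic acid cycle, and so for the NADH that feeds complex I, in cultured fibroblasts. The transcription factor p53, the product of Trp53, is known to act on mitochondrial metabolism.

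The study sequenced RNA of 3T3 cells, mouse embryonic fibroblasts that become immortal through repeated passage in culture, from 2 such lines. The 4 groups held 3 libraries each, 12 in all: p53 -/- cells (p53-null) in glutamine-free DMEM, p53-null cells in complete DMEM with 2 mM glutamine, and WT p53 cells in the same 2 media, each for 18 h. Before that, all cells were grown in DMEM with 25 mM glucose and 2 mM glutamine. Each genotype was represented by 1 line, so genotype and line cannot be told apart, and the lines are named below by their genotype. Whether the 3 libraries of a group were cultured separately is not stated in the labels. Their spread may therefore be technical, and the p-values reflect that spread alone.

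Levels are given as RPKM (reads scaled by gene length and by the mapped reads of the library), which can be compared between genes because it is a value per length. Changes are differences of log2(RPKM + 1) with their standard error (SE), which understate the change of genes near or below 1 RPKM. Each was tested with limma across 11461 genes that reached 1 RPKM in at least 3 libraries, and a gene was called at a Benjamini-Hochberg adjusted p under 0.05. Of the 88 members, 82 were tested. In bulk RNA, fewer cells of a type and less RNA per cell cannot be told apart.

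Trp53 checked the genotype labels in part. It measured 33.9, 34.6 and 35.2 RPKM in the p53-null glutamine-free libraries and 27.9, 29.0 and 29.6 RPKM in p53-null complete medium, against 109, 112 and 114 RPKM in WT glutamine-free and 58.7, 57.8 and 59.0 RPKM in WT complete medium. Every p53-null library was lower than every WT library, but none was near 0, and a value over the whole gene does not show which exons the reads came from. RPKM summed to 284426 to 319735 per library, and 10306 to 10671 genes reached 1 RPKM. Among fibroblast markers, Fn1 and Vim averaged at least 498 and 72.3 RPKM in every group, while Thy1 averaged at most 0.339 RPKM. The 10 fibroblast markers summed to 1432 to 1458 RPKM in the p53-null glutamine-free libraries, 2503 to 2540.2 in p53-null complete, 1028 to 1036 in WT glutamine-free and 4125 to 4145 in WT complete. Of the 9 that were tested, 8 fell and 1 rose on withdrawal in p53-null cells, and 9 fell and 0 rose in WT cells. Krt18, a keratin of simple epithelia, averaged 75.5 and 59.6 RPKM in the p53-null groups and at most 0.0115 RPKM in the WT groups, whereas Epcam and Cdh1 averaged at most 0.0965 RPKM in any group. Only 1 of the 4 epithelial markers, Krt18, was high enough to be tested, and the keratin Krt8 was not. Neural markers summed to 1.84 to 1.99 RPKM in the p53-null glutamine-free libraries, 1.34 to 1.61 in p53-null complete, 21.3 to 21.7 in WT glutamine-free and 39.1 to 39.8 in WT complete, and macrophage and endothelial markers to at most 7.68 and 1.58 RPKM in any library. The part of these markers in the results below was not tested.

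The summed RPKM of the members fell when glutamine was removed, in both lines and in all 4 complexes. For complex I in WT cells, however, the median change was -0.0012, and 44.4% of members fell beside 44% of all tested genes. The 88 members together summed to 5539 ± 68.7 RPKM in p53-null glutamine-free cells against 6171 ± 18.6 RPKM in p53-null complete cells, and to 5524 ± 106 RPKM in WT glutamine-free cells against 6267 ± 45.3 RPKM in WT complete cells (mean ± SD, n = 3 each). The summed level on withdrawal was 0.898 times that of complete medium in p53-null cells and 0.881 times in WT cells. In p53-null cells 51 of 82 tested members (62.2%) fell and 11 rose, where 32% of all tested genes fell and 50% rose. In WT cells 46 (56.1%) fell and 21 rose, where 44% of all tested genes fell and 46% rose. The median change of the members was -0.14 in p53-null cells, beside 0.08 over all tested genes, and -0.13 in WT cells, beside 0.01. With each library centred on its median gene the p53-null split became 68 lower and 4 higher, where 43.5% of all tested genes fell and 39.5% rose. The median of the members less that of all tested genes was -0.23 with and without this centring.

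The complexes shared the direction of their sums but not its size. In p53-null cells the glutamine-free sum was 0.888 times the complete-medium sum for complex I, 0.927 for complex III, 0.953 for complex IV and 0.863 for complex V. In WT cells the same ratios were 0.926, 0.816, 0.874 and 0.862. The sum of complex V was thus reduced by nearly the same proportion in both lines, that of complex I more in p53-null cells, and those of complexes III and IV more in WT cells, though the difference of these ratios between lines was not tested. Single members weighed heavily on the WT ratios. Uqcrh averaged 78.6 RPKM without glutamine against 181 RPKM with it, beside complex III sums of 493 and 604 RPKM. Ndufa4, placed under complex I by its name but known in complex IV, averaged 162 against 268 RPKM, beside complex I sums of 1904 and 2057 RPKM. Complex I summed to 2228 ± 9.21 RPKM in p53-null complete cells against 2057 ± 21.8 RPKM in WT complete cells, and complex V to 2033 ± 7.89 against 1998 ± 14.4 RPKM. Complex IV had the opposite order, with 1351 ± 1.52 RPKM in p53-null complete cells against 1608 ± 9.11 RPKM in WT complete cells. The summed RPKM of whole libraries also differed between the lines. As shares of it, complex I held 0.764% in p53-null complete and 0.655% in WT complete cells. Complex V held 0.697% and 0.636%, and complex IV 0.463% and 0.512%.

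**Figure D1:**
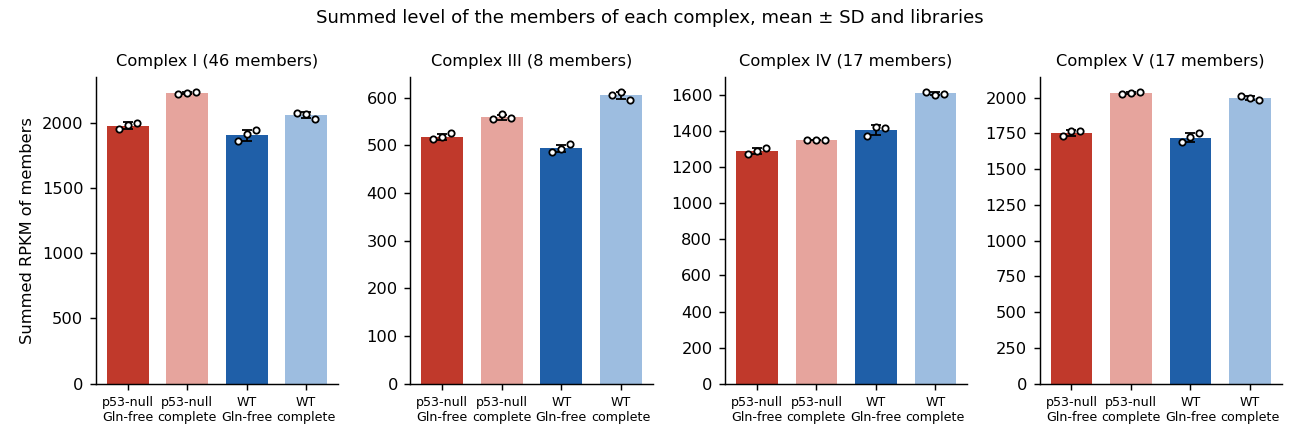
Summed RPKM of the members of each complex (vertical axis, from 0) in the 4 groups; bars are means, error bars are SDs over 3 libraries and circles are single libraries. For every complex the glutamine-free libraries of a line lie below its complete-medium libraries, as in complex V with 1755 ± 21.9 against 2033 ± 7.89 RPKM in p53-null cells.

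Member by member, changes were wider in WT cells. The median size of a change, whatever its sign, was 0.192 on the log2(RPKM + 1) scale in p53-null cells and 0.357 in WT cells. The largest were 0.808 (Ndufaf8) and 3.04 (Cox6a2). No member passed a change of 1 on that scale in p53-null cells, and 9 of 82 did in WT cells. All tested genes showed the same order, with an interquartile range of 0.509 in p53-null and 1.03 in WT cells, against 0.304 and 0.585 for the members. Across both lines, 32 members fell in each and 6 rose in each. Another 10 fell in p53-null and rose in WT cells, and 3 rose in p53-null and fell in WT cells. Such pairs of calls were not counted over all tested genes. Of those genes, 32% fell and 50% rose in p53-null cells, and 44% fell and 46% rose in WT cells. The difference of the responses, p53-null minus WT, was called for 33 members above 0 and 32 below 0, where 46.4% and 38.4% of all tested genes were called. Under median centring those member counts were 28 and 40, where 40.3% and 44.9% of all tested genes were called.

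**Figure D2:**
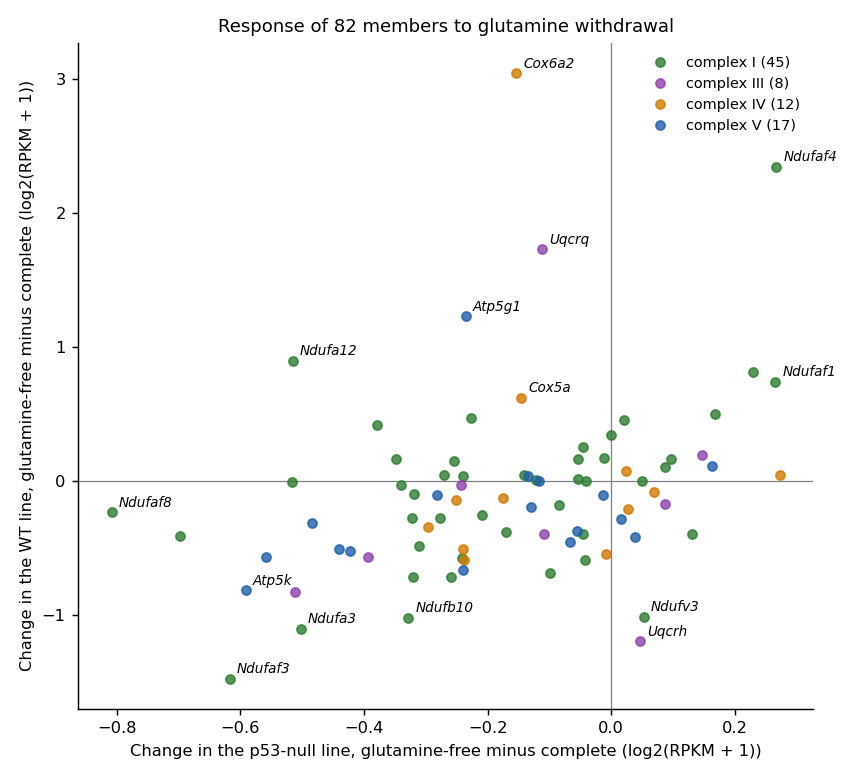
Change of the 82 tested members on glutamine withdrawal in the p53-null line (horizontal axis) and in the WT line (vertical axis), both as glutamine-free minus complete on the log2(RPKM + 1) scale; colours mark the complex. The horizontal spread runs from -0.81 to 0.27 and the vertical one from -1.47 to 3.04, with Cox6a2, Ndufaf4, Uqcrq and Atp5g1 highest.

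The responses of the lines differed most at 5 members that rose in WT cells: Cox6a2, Ndufaf4, Uqcrq, Atp5g1 and Ndufa12. Ndufaf4, an assembly factor of complex I (chromosome 4 at 24898083 to 24905001 on the plus strand, mm10), measured 9.14, 8.64 and 8.95 RPKM in the p53-null glutamine-free libraries against 7.13, 7.67 and 6.92 RPKM in complete medium. The WT libraries gave 22.0, 21.9 and 21.6 RPKM without glutamine against 3.44, 3.55 and 3.49 RPKM with it. The 4 groups did not overlap, with the WT groups at both ends of the order and the p53-null groups between them. The change was 0.27 (SE 0.032, adjusted p = 5.1e-06) in p53-null and 2.34 (SE 0.032, adjusted p = 6.8e-16) in WT cells, where the RPKM ratio was 6.25, and the responses differed by -2.08 (SE 0.045, adjusted p = 2.6e-13).

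Uqcrq, a small accessory subunit of complex III (chromosome 11 at 53427922 to 53430831 on the minus strand), stood apart in 1 group. It measured 58.2, 57.9 and 61.7 RPKM in p53-null glutamine-free against 63.2, 65.1 and 64.1 RPKM in p53-null complete libraries, and 67.2, 71.1 and 70.6 RPKM in WT glutamine-free against 20.5, 20.3 and 20.1 RPKM in WT complete libraries. The WT complete libraries were the low ones, and the other groups lay within 57.9 to 71.1 RPKM. Uqcrq changed by -0.11 (SE 0.026, adjusted p = 0.0015) in p53-null and by 1.73 (SE 0.026, adjusted p = 1.7e-15) in WT cells, a difference of -1.84 (SE 0.037, adjusted p = 1.2e-13). Uqcrh, the hinge protein next to cytochrome c1 (chromosome 4 at 116066965 to 116075071 on the minus strand), had the same odd group in the other direction. Its levels were 63.3, 61.8 and 64.8 RPKM in p53-null glutamine-free against 60.7, 62.4 and 60.4 RPKM in p53-null complete libraries, and 78.1, 77.0 and 80.6 RPKM in WT glutamine-free against 182, 184 and 177 RPKM in WT complete libraries. The p53-null media overlapped and gave 0.05 (SE 0.022, adjusted p = 0.069), which turned to -0.06 under median centring (adjusted p = 0.016), whereas the WT change was -1.19 (SE 0.022, adjusted p = 1.4e-14), and the responses differed by 1.24 (SE 0.032, adjusted p = 1.1e-12).

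Atp5g1, one of 3 genes for the proton-carrying c-ring of the synthase (chromosome 11 at 96068852 to 96075670 on the minus strand), measured 56.9, 55.5 and 55.0 RPKM in p53-null glutamine-free against 66.6, 65.4 and 65.5 RPKM in p53-null complete libraries. In WT libraries it measured 95.1, 96.3 and 97.7 RPKM without glutamine against 41.2, 41.0 and 39.4 RPKM with it. Withdrawal thus moved it in opposite directions, by -0.23 (SE 0.019, adjusted p = 1.2e-07) in p53-null and by 1.23 (SE 0.019, adjusted p = 2.6e-15) in WT cells, with no overlap in either, and the responses differed by -1.46 (SE 0.027, adjusted p = 6.7e-14). Ndufa12, an accessory subunit of complex I (chromosome 10 at 94198720 to 94221443 on the plus strand), did the same. It read 56.2, 57.1 and 62.7 RPKM in p53-null glutamine-free against 89.7, 79.2 and 84.0 RPKM in p53-null complete libraries, and 70.7, 72.0 and 80.7 RPKM in WT glutamine-free against 46.1, 42.4 and 31.3 RPKM in WT complete libraries. Its libraries scattered, the WT complete ones most, but the media did not overlap in either line, and the changes were -0.52 (SE 0.11, adjusted p = 0.00075) in p53-null and 0.90 (SE 0.11, adjusted p = 4.1e-06) in WT cells, differing by -1.41 (SE 0.15, adjusted p = 1.8e-06).

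Cox6a2, the heart and skeletal muscle isoform of a complex IV subunit (chromosome 7 at 128205435 to 128206387 on the minus strand), had the largest change of any member. It measured 1.92, 1.73 and 1.84 RPKM in p53-null glutamine-free against 2.41, 1.62 and 2.50 RPKM in p53-null complete libraries, and 7.93, 7.85 and 8.76 RPKM in WT glutamine-free against 0.116, 0.111 and 0.111 RPKM in WT complete libraries. The gene was thus near 0 in WT complete cells and highest in WT glutamine-free cells, while the p53-null media overlapped. The change was 3.04 (SE 0.087, adjusted p = 8.2e-13) in WT and -0.15 (SE 0.087, adjusted p = 0.12) in p53-null cells, and the responses differed by -3.20 (SE 0.12, adjusted p = 4.7e-11). No ratio of RPKM is given against so low a level. The 5 muscle markers in the table summed to 1.18 to 1.22 RPKM in the p53-null glutamine-free libraries, 1.21 to 1.41 in p53-null complete, 0.0521 to 0.102 in WT glutamine-free and 0.291 to 0.439 in WT complete, with Myog at or below 0.00498 RPKM in every group. These sums are low, and only 1 of the 5 markers was tested, with no call in WT cells. The part of muscle genes in the change of Cox6a2 was not tested. Itgad, on the opposite strand, covers 10.3% of its exon sequence and did not exceed 0.0888 RPKM.

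**Figure D3:**
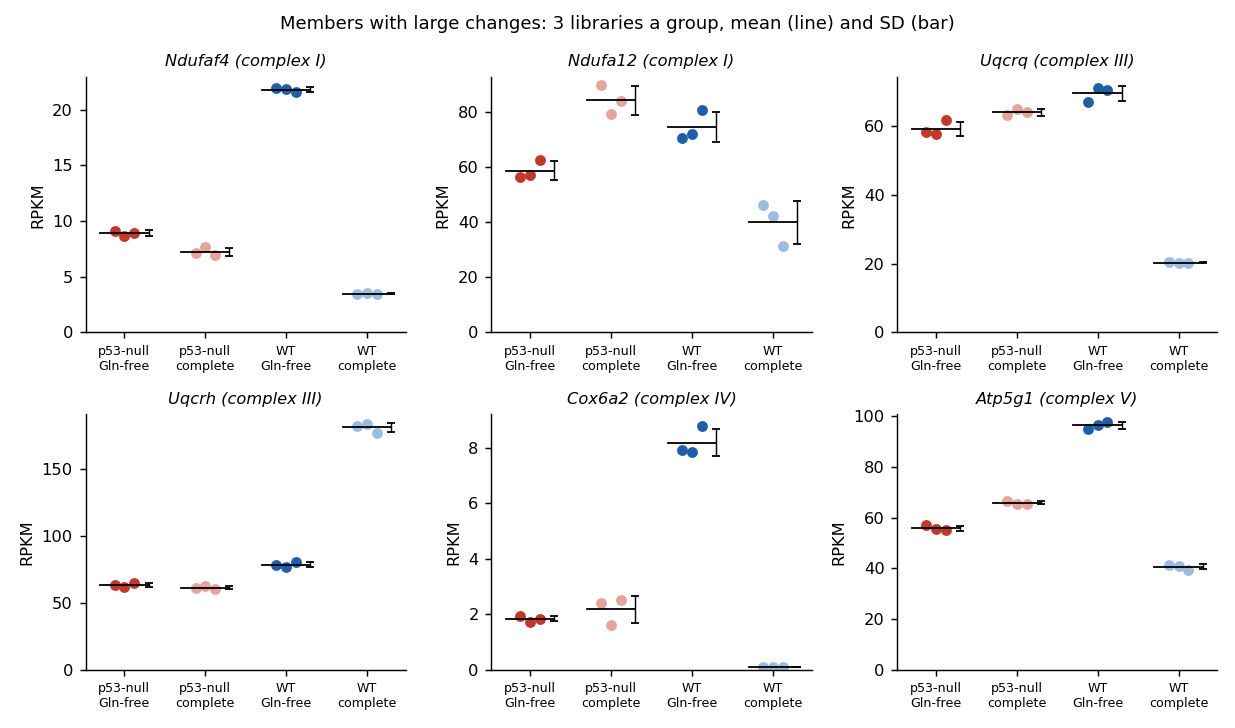
RPKM (vertical axes, from 0) of 6 members with large changes in the 4 groups; points are libraries, lines are means and bars are SDs over 3 libraries. Uqcrq and Uqcrh have 1 odd group, WT complete, at 20.3 and 181 RPKM, and Ndufaf4, Cox6a2 and Atp5g1 are highest in WT glutamine-free libraries, at 21.8, 8.18 and 96.4 RPKM.

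The promoters of Ndufaf4, Uqcrh and Atp5g1 are shown because these genes of complexes I, III and V changed by over 1 on the log2 scale in WT cells, the first and last upward and Uqcrh downward. Each window holds 250 bases before to 50 bases after the annotated start, written 5′ to 3′ on the gene's own strand, from RefSeq on GRCm38.p6. The windows are chr4:24897833-24898132 (plus strand), chr4:116075021-116075320 (minus strand) and chr11:96075582-96075881 (minus strand). Capitals mark matches on either strand to the core of NRF1 (GCGCATGC) in Ndufaf4, of ETS factors such as GABP (CCGGAAGT) in Uqcrh, and to the E-box (CACGTG) in Atp5g1.
Ndufaf4: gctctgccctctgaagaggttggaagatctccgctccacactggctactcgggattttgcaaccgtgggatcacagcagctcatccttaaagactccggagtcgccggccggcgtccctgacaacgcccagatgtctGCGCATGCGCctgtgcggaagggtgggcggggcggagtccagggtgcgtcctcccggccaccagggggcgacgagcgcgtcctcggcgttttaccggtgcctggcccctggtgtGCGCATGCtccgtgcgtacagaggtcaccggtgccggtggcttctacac
Uqcrh: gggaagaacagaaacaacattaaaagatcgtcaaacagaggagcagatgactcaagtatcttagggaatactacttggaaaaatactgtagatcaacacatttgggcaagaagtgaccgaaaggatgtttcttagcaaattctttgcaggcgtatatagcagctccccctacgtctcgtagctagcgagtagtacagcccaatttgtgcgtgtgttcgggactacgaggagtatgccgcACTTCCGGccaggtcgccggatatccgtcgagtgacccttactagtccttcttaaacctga
Atp5g1: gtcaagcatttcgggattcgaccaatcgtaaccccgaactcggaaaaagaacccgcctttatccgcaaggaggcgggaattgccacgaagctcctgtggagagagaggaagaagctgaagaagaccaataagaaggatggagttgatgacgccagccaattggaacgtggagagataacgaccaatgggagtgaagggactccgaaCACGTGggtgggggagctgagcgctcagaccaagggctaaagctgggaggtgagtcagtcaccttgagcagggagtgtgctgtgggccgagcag

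NRF1, GABP and YY1 are transcription factors known for respiratory genes. Ndufaf4 holds an overlapping pair of NRF1 core matches, which begin at bases 138 and 140 of the window, one on each strand, and 1 more at base 252. The ETS core of Uqcrh begins at base 240 and the E-box of Atp5g1 at base 207. Over the 71 members with a promoter in the table, the NRF1 core was in 11 of 71 members (15.49%) against 3.05% of all promoters, the ETS core in 5 of 71 members (7.04%) against 4.31% of all promoters and the YY1 core (AAGATGGCG) in 8 of 71 members (11.27%) against 1.64% of all promoters. The E-box was in 5 of 71 members (7.04%) against 8.09% of all promoters, and the C/EBP-ATF core (TGATGCAA) in 0 of 71 against 1.03%; these 2 motifs were chosen after the values were seen. Of the 11 members with the NRF1 core, 8 fell and 1 rose in p53-null cells and 7 fell and 1 rose in WT cells, the riser being Ndufaf4 in each. Of the 5 with the ETS core, 2 fell and 0 rose in p53-null and 4 fell and 0 rose in WT cells. Of the 8 with the YY1 core, 5 fell and 0 rose in p53-null and 4 fell and 3 rose in WT cells. Of the 5 with the E-box, 5 fell and 0 rose in p53-null and 1 fell and 3 rose in WT cells. Over all members 62.2% fell in p53-null and 56.1% in WT cells, and over all genes 32% and 44%. These are letter matches and not measured binding.

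Complex I members fell for the most part in p53-null cells and went both ways in WT cells, where the share that fell was close to that of all genes. Of its 45 tested members, 28 fell and 6 rose in p53-null cells and 20 fell and 16 rose in WT cells, that is 62.2% and 44.4% lower beside 32% and 44% of all genes. The median changes were -0.17 and -0.0012. The 7 core subunits form the catalytic centre of the matrix arm, with the flavin and the iron-sulfur clusters. Among them, 5 fell and 0 rose in p53-null and 3 fell and 2 rose in WT cells. Ndufs1, the subunit with the most iron-sulfur clusters, averaged 25.8 ± 0.525 in p53-null glutamine-free, 31.4 ± 0.940 in p53-null complete, 30.0 ± 0.507 in WT glutamine-free and 29.0 ± 0.190 in WT complete cells (mean RPKM ± SD, n = 3). Its change was -0.27 (SE 0.022, adjusted p = 1.3e-07) in p53-null cells and 0.05 (SE 0.022, adjusted p = 0.069) in WT cells, where it was -0.08 and called after quantile normalization (adjusted p = 0.0056), and the responses differed by -0.32 (SE 0.032, adjusted p = 7.7e-07).

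Ndufv1, which binds NADH and flavin, averaged 64.8 ± 0.667 in p53-null glutamine-free, 66.8 ± 0.129 in p53-null complete, 55.2 ± 1.04 in WT glutamine-free and 46.1 ± 0.389 in WT complete cells. It rose by 0.26 (SE 0.015, adjusted p = 2.2e-09) in WT cells, and in p53-null cells the value of -0.04 (SE 0.015, adjusted p = 0.016) was no longer called with the libraries rescaled to one sum. Ndufv2, its partner with an iron-sulfur cluster, was lower without glutamine in both lines, with changes of -0.10 (SE 0.020, adjusted p = 0.00047) in p53-null and -0.69 (SE 0.020, adjusted p = 8.7e-13) in WT cells. Ndufs3 was called in neither line, at 67.0 against 68.9 RPKM in p53-null and 33.4 against 33.4 RPKM in WT cells.

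The accessory subunits surround that core and steady it. Of 30 tested, 19 fell and 2 rose in p53-null cells and 12 fell and 11 rose in WT cells. That is 63.3% and 40% lower, beside 32% and 44% of all tested genes. Ndufb10 of the membrane arm measured 66.7, 69.8 and 70.5 RPKM in p53-null glutamine-free against 89.0, 85.3 and 86.6 RPKM in p53-null complete libraries, and 26.8, 28.6 and 29.6 RPKM in WT glutamine-free against 58.6, 59.1 and 57.3 RPKM in WT complete libraries. It was lower without glutamine in each line, with changes of -0.33 (SE 0.032, adjusted p = 6.2e-07) in p53-null and -1.02 (SE 0.032, adjusted p = 2.3e-12) in WT cells, and no pair of groups overlapped. Ndufv3, a small subunit beside the NADH site, read 21.0, 20.3 and 21.4 RPKM in p53-null glutamine-free against 20.4, 19.6 and 20.4 RPKM in p53-null complete libraries, and 13.0, 13.0 and 12.7 RPKM in WT glutamine-free against 27.6, 27.1 and 26.3 RPKM in WT complete libraries. Its WT groups were far apart, with a change of -1.01 (SE 0.025, adjusted p = 2e-13), while the p53-null media overlapped at 0.05 (SE 0.025, adjusted p = 0.069), a change that was -0.11 after quantile normalization (adjusted p = 0.0011).

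Ndufa3 averaged 29.7 ± 1.94 in p53-null glutamine-free, 42.4 ± 2.51 in p53-null complete, 19.8 ± 2.71 in WT glutamine-free and 43.4 ± 2.62 in WT complete cells, and its changes were -0.50 (SE 0.083, adjusted p = 9.3e-05) in p53-null and -1.10 (SE 0.083, adjusted p = 2.6e-08) in WT cells. Its glutamine-free level was 0.699 times the complete-medium level in p53-null cells and 0.455 times in WT cells. Ndufs4, an accessory subunit whose loss causes Leigh syndrome in humans, had a change of -0.12 in p53-null cells, which was called, and of 0.01 in WT cells, which was not, although it was -0.11 after quantile normalization (adjusted p = 0.0015). Ndufab1, the mitochondrial acyl carrier protein, moved in opposite directions, by -0.38 (SE 0.038, adjusted p = 8.3e-07) in p53-null and 0.42 (SE 0.038, adjusted p = 1.9e-07) in WT cells. It falls outside the rule for named genes and was chosen after its values were seen, as were Ndufc1, Ndufs3, Ndufs5 and Ndufv2. Ndufc1 fell in both lines, with changes of -0.70 in p53-null and -0.41 in WT cells. Ndufs5 had the most scattered libraries in 3 of the groups, with an SD of up to 23.3% of its mean, where the median member had 2.06 to 3.04%.

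All 8 assembly factors of complex I were called in both lines, but so were most of the 11461 tested genes, 9403 in p53-null and 10321 in WT cells. In p53-null cells 4 fell and 4 rose, and in WT cells 5 fell and 3 rose. Besides Ndufaf4, Ndufaf1 rose in both lines. It helps to build the membrane arm, and it measured 28.6, 30.0 and 29.7 RPKM in p53-null glutamine-free against 23.3, 25.7 and 24.0 RPKM in p53-null complete libraries, and 12.4, 11.8 and 11.8 RPKM in WT glutamine-free against 6.68, 6.23 and 7.45 RPKM in WT complete libraries. No 2 groups overlapped, and the rises were 0.27 (SE 0.050, adjusted p = 0.00028) in p53-null, no longer called after quantile normalization (0.11, adjusted p = 0.06), and 0.74 (SE 0.050, adjusted p = 8.3e-09) in WT cells.

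Ndufaf3, which binds Ndufaf4 during assembly, went the other way at a low level. It measured 0.749, 0.468 and 0.911 RPKM in p53-null glutamine-free against 1.54, 1.56 and 1.73 RPKM in p53-null complete libraries, and 0.472, 0.456 and 0.599 RPKM in WT glutamine-free against 2.86, 3.37 and 3.35 RPKM in WT complete libraries. The media did not overlap in either line, and the changes were -0.62 (SE 0.083, adjusted p = 1.5e-05) in p53-null and -1.47 (SE 0.083, adjusted p = 1.2e-09) in WT cells. The p53-null glutamine-free level was 0.441 times the complete-medium level for Ndufaf3 and 0.527 times for Ndufaf8. On the log2(RPKM + 1) scale, Ndufaf8, the partner of Ndufaf5, had the largest fall of any member in p53-null cells. It averaged 5.06 ± 0.173 in p53-null glutamine-free, 9.62 ± 0.148 in p53-null complete, 8.14 ± 0.698 in WT glutamine-free and 9.73 ± 0.454 in WT complete cells, with changes of -0.81 (SE 0.049, adjusted p = 5.5e-09) in p53-null and -0.23 (SE 0.049, adjusted p = 0.0006) in WT cells. The responses of Ndufaf3 and Ndufaf8 differed between lines by 0.86 and -0.58, and both differences were called.

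Complex III held some of the largest changes in its small subunits and smaller ones in its core. Of 8 members, 5 fell and 2 rose in p53-null cells and 5 fell and 2 rose in WT cells. That is 62.5% lower in each line, beside 32% of all tested genes in p53-null and 44% in WT cells. Of the 3 core members, 2 fell and 1 rose in p53-null and 3 fell and 0 rose in WT cells. Uqcrc1, a large core protein on the matrix side, averaged 55.2 ± 0.897 in p53-null glutamine-free, 72.8 ± 1.19 in p53-null complete, 42.3 ± 1.31 in WT glutamine-free and 63.2 ± 1.06 in WT complete cells, with changes of -0.39 (SE 0.023, adjusted p = 3e-09) in p53-null and -0.57 (SE 0.023, adjusted p = 2.7e-11) in WT cells. Uqcrc2, the other core protein, averaged 51.3 ± 1.10 in p53-null glutamine-free, 55.4 ± 0.803 in p53-null complete, 28.1 ± 0.776 in WT glutamine-free and 37.2 ± 0.739 in WT complete cells. It too fell in both lines, with changes of -0.11 (SE 0.023, adjusted p = 0.00071) in p53-null and -0.39 (SE 0.023, adjusted p = 1.8e-09) in WT cells. Uqcrfs1, the Rieske iron-sulfur protein, averaged 46.6 ± 0.496 in p53-null glutamine-free, 43.8 ± 0.512 in p53-null complete, 50.4 ± 1.54 in WT glutamine-free and 56.9 ± 1.40 in WT complete cells. Its WT change was -0.17 (SE 0.023, adjusted p = 1e-05), and its p53-null change of 0.09 (SE 0.023, adjusted p = 0.0032) became -0.03 after quantile normalization and -0.02 under median centring.

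The 5 accessory members of complex III went separate ways, Uqcrq and Uqcrh most of all. Uqcr11 fell in both lines, at 38.9 ± 0.784 in p53-null glutamine-free, 55.9 ± 1.82 in p53-null complete, 36.4 ± 0.736 in WT glutamine-free and 65.5 ± 0.548 in WT complete cells, with changes of -0.51 (SE 0.023, adjusted p = 3.4e-10) in p53-null and -0.83 (SE 0.023, adjusted p = 7.7e-13) in WT cells. Uqcr10 was higher without glutamine in both, at 127 ± 2.69 in p53-null glutamine-free, 114 ± 3.63 in p53-null complete, 79.7 ± 2.94 in WT glutamine-free and 69.5 ± 2.71 in WT complete cells. Its changes were 0.15 (SE 0.033, adjusted p = 0.0011) in p53-null, no longer called under median centring (0.04, adjusted p = 0.21), and 0.19 (SE 0.033, adjusted p = 8.8e-05) in WT cells. Uqcrb, near the ubiquinone site, fell in p53-null cells, where its change was -0.24 (SE 0.017, adjusted p = 2.2e-08), and was not called in WT cells, at -0.03 (SE 0.017, adjusted p = 0.077). In WT cells Uqcrq had 69.6 RPKM without glutamine against 20.3 RPKM with it, the lowest mean of the 8 in complete medium, and Uqcrh had 78.6 RPKM without against 181 RPKM with it, the highest.

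In complex IV most called members fell in each line, and the tissue-restricted ones were near 0 apart from Cox6a2. Of 12 tested members, 6 fell and 2 rose in p53-null cells and 8 fell and 2 rose in WT cells. Lower calls thus made up 50% and 66.7%, beside 32% and 44% of all tested genes. Cox4i1, the largest nuclear subunit, averaged 229.7 ± 1.52 in p53-null glutamine-free, 219 ± 2.99 in p53-null complete, 291 ± 5.39 in WT glutamine-free and 308 ± 2.28 in WT complete cells. The changes were 0.07 (SE 0.015, adjusted p = 0.00091) in p53-null cells, which turned to -0.04 under median centring, and -0.08 (SE 0.015, adjusted p = 0.00022) in WT cells. Cox5a, on the matrix side, averaged 99.2 ± 0.981 in p53-null glutamine-free, 109.8 ± 0.378 in p53-null complete, 135 ± 7.42 in WT glutamine-free and 87.7 ± 1.68 in WT complete cells. It fell in p53-null cells, with -0.15 (SE 0.030, adjusted p = 0.00063), and rose in WT cells, with 0.62 (SE 0.030, adjusted p = 2.4e-10). The responses differed by -0.76 (SE 0.043, adjusted p = 2e-09). Apart from Cox6a2, it was the only riser of the complex in WT cells. Cox7a2l links complexes III and IV into supercomplexes. In p53-null cells it had the largest rise of any member on the log2(RPKM + 1) scale, near that of Ndufaf4 (0.27, RPKM ratio 1.23). It averaged 137 ± 1.67 in p53-null glutamine-free, 113 ± 1.91 in p53-null complete, 99.3 ± 2.03 in WT glutamine-free and 96.3 ± 2.01 in WT complete cells, with changes of 0.27 (SE 0.020, adjusted p = 3.1e-08) in p53-null and 0.04 (SE 0.020, adjusted p = 0.051) in WT cells, which was not called as deposited and was -0.08 after quantile normalization (adjusted p = 0.0007).

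Cox6c and Cox7c, small transmembrane subunits, fell in both lines. Cox6c averaged 102 ± 3.93 in p53-null glutamine-free, 120.2 ± 2.80 in p53-null complete, 119.9 ± 4.08 in WT glutamine-free and 181 ± 3.60 in WT complete cells, with changes of -0.24 (SE 0.030, adjusted p = 8.5e-06) in p53-null and -0.59 (SE 0.030, adjusted p = 4.5e-10) in WT cells. Cox7c averaged 98.7 ± 3.46 in p53-null glutamine-free, 121 ± 3.56 in p53-null complete, 164 ± 6.03 in WT glutamine-free and 208 ± 10.7 in WT complete cells. It changed by -0.30 (SE 0.039, adjusted p = 1.1e-05) in p53-null and -0.34 (SE 0.039, adjusted p = 1.8e-06) in WT cells. Cox6a1, the widely expressed counterpart of Cox6a2, averaged 166 ± 3.98 in p53-null glutamine-free, 196 ± 1.12 in p53-null complete, 135 ± 5.72 in WT glutamine-free and 192 ± 2.22 in WT complete cells, and Cox6a2 was below it in every library. Its changes were -0.24 in p53-null and -0.51 in WT cells, both called, the reverse of the direction of Cox6a2 in WT cells.

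The other isoform pairs were one-sided. Cox4i2, Cox6b2, Cox7b2 and Cox8b, known from lung, testis or muscle, did not exceed 0.0980 RPKM in any library and were listed at 0 in 6, 8, 11 and 11 of 12. Cox7a1, the muscle form of Cox7a2, reached 0.520 RPKM and Ndufa4l2, the hypoxia-inducible relative of Ndufa4, 0.213 RPKM. These 6 were not tested. Their widely expressed partners were far higher. Cox6b1 averaged 103 in p53-null glutamine-free, 101 in p53-null complete, 85.9 in WT glutamine-free and 99.6 in WT complete cells, in RPKM, and Cox8a 128 in p53-null glutamine-free, 129 in p53-null complete, 121 in WT glutamine-free and 177 in WT complete cells. Both fell in WT cells, Cox8a with a change of -0.54 and Cox6b1 with -0.21. The p53-null values were -0.01 for Cox8a and 0.03 for Cox6b1, and neither was called. Under median centring both were called lower in p53-null cells, Cox8a at -0.11 (adjusted p = 0.025) and Cox6b1 at -0.08 (adjusted p = 0.004), and with one sum Cox6b1 was called higher at 0.05 (adjusted p = 0.043). Cox7a2 fell in both lines and averaged 44.3 in p53-null glutamine-free, 53 in p53-null complete, 73.9 in WT glutamine-free and 81.7 in WT complete cells. Cox7b, a small subunit with a testis form, also fell in both, at 78.2 in p53-null glutamine-free, 88.4 in p53-null complete, 98.8 in WT glutamine-free and 108 in WT complete cells. Ndufa4, named for complex I but known as a subunit of complex IV, averaged 165 ± 1.82 in p53-null glutamine-free, 197 ± 1.27 in p53-null complete, 162 ± 3.38 in WT glutamine-free and 268 ± 3.43 in WT complete cells, with changes of -0.26 (SE 0.016, adjusted p = 7.7e-09) in p53-null and -0.72 (SE 0.016, adjusted p = 8e-14) in WT cells.

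In each line most members of complex V fell. Of 17 members, 12 fell and 1 rose in p53-null cells and 13 fell and 1 rose in WT cells. The risers were Atp5sl in p53-null and Atp5g1 in WT cells. Lower calls made up 70.6% and 76.5%, beside 32% and 44% of all tested genes. The counts for parts of the complex below are to be read beside the same shares of all genes. Atp5b, the catalytic beta subunit, had the highest level of all members in every group. It measured 491, 501 and 501 RPKM in p53-null glutamine-free against 537, 543 and 539.7 RPKM in p53-null complete libraries, and 383, 391 and 390.4 RPKM in WT glutamine-free against 391, 382 and 389.6 RPKM in WT complete libraries. It was lower without glutamine in every p53-null library, a change of -0.12 (SE 0.014, adjusted p = 4.4e-06) that became 0.12 after quantile normalization. The WT media overlapped, at 0.00 (SE 0.014, adjusted p = 0.89). Atp5c1, the rotating gamma subunit, averaged 105 ± 0.416 in p53-null glutamine-free, 115 ± 1.35 in p53-null complete, 77.7 ± 0.616 in WT glutamine-free and 88.8 ± 0.867 in WT complete cells, with changes of -0.13 (SE 0.013, adjusted p = 9.3e-07) in p53-null and -0.19 (SE 0.013, adjusted p = 9.9e-09) in WT cells. Of the 5 subunits of the F1 head, 4 fell and 0 rose in p53-null cells and 4 fell and 0 rose in WT cells.

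The 3 c-ring genes encode the same mature protein with different import peptides. All 3 fell in p53-null cells, while in WT cells Atp5g1 rose and the other two fell. Atp5g2 averaged 84.2 ± 3.45 in p53-null glutamine-free, 118 ± 2.27 in p53-null complete, 179.9 ± 6.96 in WT glutamine-free and 224 ± 2.67 in WT complete cells, with changes of -0.48 (SE 0.031, adjusted p = 8.3e-09) in p53-null and -0.31 (SE 0.031, adjusted p = 4.2e-07) in WT cells. Atp5g3 averaged 129 ± 3.74 in p53-null glutamine-free, 175 ± 4.97 in p53-null complete, 121 ± 4.30 in WT glutamine-free and 173 ± 0.0672 in WT complete cells, with -0.44 (SE 0.028, adjusted p = 7.4e-09) in p53-null and -0.51 (SE 0.028, adjusted p = 8.1e-10) in WT cells. The share of Atp5g1 in the summed RPKM of the 3 genes was 21.5, 20.8 and 20.0% in p53-null glutamine-free against 18.7, 18.2 and 18.2% in p53-null complete libraries, and 24.8, 24.0 and 24.0% in WT glutamine-free against 9.38, 9.35 and 9.11% in WT complete libraries. Shares in WT complete cells were thus below those of every other library. Atp5g2 held 30.4, 32 and 31.6% in p53-null glutamine-free, 33.7, 32.1 and 33.0% in p53-null complete, 44.9, 45.4 and 45.5% in WT glutamine-free and 51.3, 51.4 and 51.0% in WT complete libraries, so its share was lower in p53-null libraries, all 6 of them, than in any WT library. With 3 libraries against 3, an exact permutation test of a single share cannot go below p = 0.10, so none is given.

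**Figure D4:**
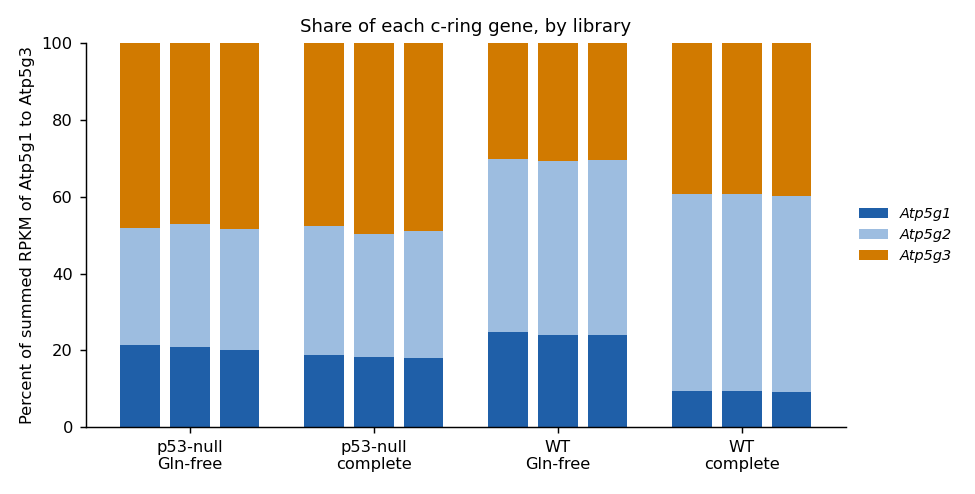
Percent of the summed RPKM of Atp5g1, Atp5g2 and Atp5g3 (vertical axis, 0 to 100) held by each gene; every bar is 1 library and libraries are grouped by line and medium. Atp5g1, at the foot of the bars, holds 24.8, 24.0 and 24.0% in WT glutamine-free libraries and 9.38, 9.35 and 9.11% in WT complete libraries.

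Atp5k, subunit e, which helps synthase dimers to form, had the largest fall of complex V in both lines. It averaged 53.6 ± 2.23 in p53-null glutamine-free, 81.2 ± 1.36 in p53-null complete, 44.6 ± 0.585 in WT glutamine-free and 79.1 ± 2.73 in WT complete cells, with changes of -0.59 (SE 0.030, adjusted p = 8.2e-10) in p53-null and -0.81 (SE 0.030, adjusted p = 1.1e-11) in WT cells. Atp5j2, subunit f, also fell in both, with changes of -0.24 in p53-null and -0.66 in WT cells. Of the 4 peripheral stalk members, 2 fell and 0 rose in p53-null and 4 fell and 0 rose in WT cells. Atp5sl, also named Dmac2 and known as an assembly factor of complex I, was low at 3.02 in p53-null glutamine-free, 2.59 in p53-null complete, 1.40 in WT glutamine-free and 1.23 in WT complete cells. Its p53-null change of 0.16 (SE 0.052, adjusted p = 0.011) was no longer called under median centring (0.06, adjusted p = 0.3) or without the first p53-null complete library (0.12, adjusted p = 0.053).

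Between the lines, members differed in both directions. In complete medium 39 of 82 (47.6%) were higher and 32 (39.0%) lower in p53-null than in WT cells, where 48.4% and 42.5% of all tested genes were. In glutamine-free medium 38 (46.3%) were higher and 38 (46.3%) lower, where 51.4% and 40% were. The complete-medium shares were thus near those of all genes. The medians were 0.05 in complete and 0.05 in glutamine-free medium, beside 0.05 and 0.10 over all tested genes, and the glutamine-free one was -0.09 under median centring. Without members with pseudogenes or opposite-strand genes the median was 0.16 in each medium, with 16 lower calls in complete and 19 in glutamine-free medium. With libraries rescaled to one sum the median of all genes moved to 0.24 and the member counts to 45 higher and 29 lower in glutamine-free medium, and to 0.15, 47 and 29 in complete medium. Across both media, 27 members were higher in p53-null cells in each and 24 lower in each. Another 10 were higher in complete and lower in glutamine-free medium, and 4 the reverse. These pairs of calls, too, were not counted over all tested genes. In complete medium complex I counted 25 higher and 15 lower, complex III 4 higher and 4 lower, complex IV 4 higher and 6 lower and complex V 6 higher and 7 lower.

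By role, the core of complex I and the F1 head of complex V had more members higher than lower in p53-null cells, and the peripheral stalk of complex V was lower in both media with the values as deposited. All 7 core subunits of complex I were called higher in complete medium, and 5 of 7 higher and 1 lower in glutamine-free medium. The medians of these 7 were 0.24 in complete and 0.41 in glutamine-free medium. The largest difference in complete medium was that of Ndufs3, at 67.1, 70.6 and 69.1 RPKM in p53-null against 33.4, 32.9 and 33.9 RPKM in WT complete libraries, a difference of 1.02 (SE 0.028, adjusted p = 5.3e-13) with no overlap. Of the 5 F1 subunits, 3 were higher in complete medium and 5 in glutamine-free medium, with none lower. All 4 stalk members were lower in p53-null cells in both media, with medians of -0.29 and -0.11. In glutamine-free medium the smallest of these differences was -0.07. With libraries rescaled to one sum the median of all tested genes in that medium moved from 0.10 to 0.24. Ndufa4 moved there from 0.02 to 0.17. The stalk members were not followed singly under that scaling, so their order between the lines in glutamine-free medium may not hold with it.

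**Figure D5:**
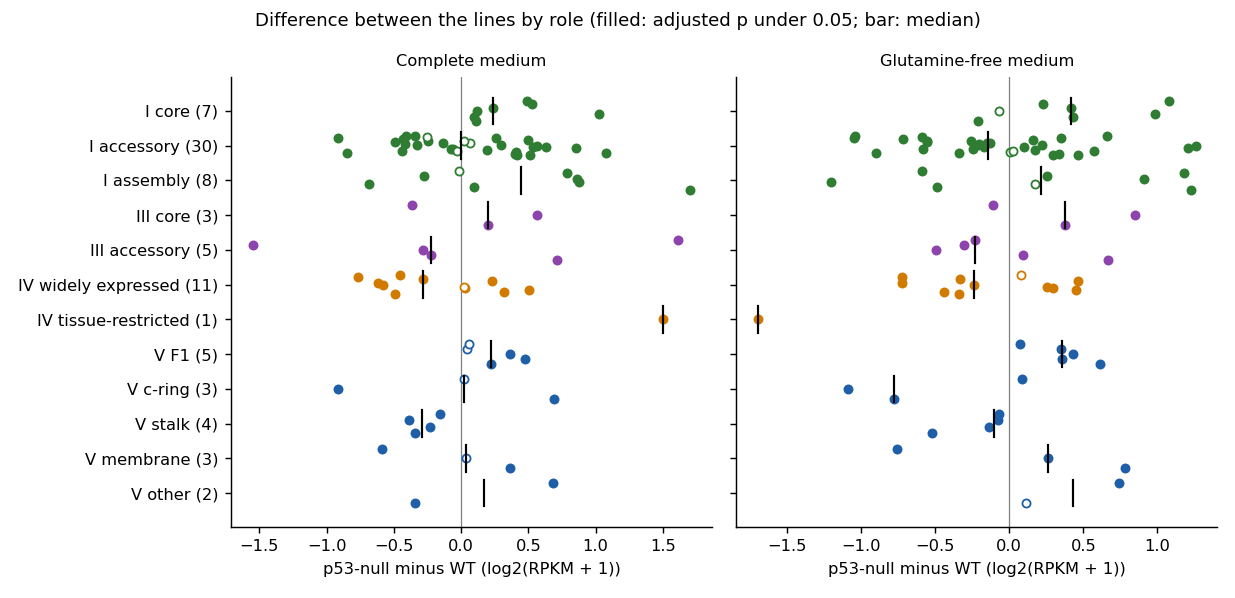
Difference between the lines, p53-null minus WT on the log2(RPKM + 1) scale (horizontal axes), for each tested member by role, in complete medium (left) and glutamine-free medium (right); filled points have an adjusted p under 0.05 and vertical bars are medians. With the values as deposited, the 7 complex I core subunits lie right of 0 in complete medium (median 0.24). The 4 stalk members lie left of it in both media.

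Several single members kept their order between the lines in both media. Ndufaf1 was higher in p53-null cells by 1.70 (SE 0.050, adjusted p = 1.3e-12) in complete and 1.23 (SE 0.050, adjusted p = 4e-11) in glutamine-free medium, Ndufb10 by 0.57 (SE 0.032, adjusted p = 1.2e-09) and 1.26 (SE 0.032, adjusted p = 3.3e-13). Ndufs4 was lower in both media, with 13.5 RPKM in p53-null against 29.1 RPKM in WT glutamine-free cells and 14.8 against 28.9 RPKM in complete medium. These are differences of -0.92 (SE 0.030, adjusted p = 3.4e-12) in complete and -1.05 (SE 0.030, adjusted p = 9.3e-13) in glutamine-free medium. Atp5g2 was also lower in both, with differences of -0.92 in complete and -1.09 in glutamine-free medium, as was Cox7c, with -0.77 and -0.72.

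Some of the largest differences between the lines changed sign with the medium. The difference of Ndufaf4, p53-null minus WT, was 0.87 (SE 0.032, adjusted p = 1.3e-11) in complete and -1.2 (SE 0.032, adjusted p = 5.3e-13) in glutamine-free medium, and that of Atp5g1 was 0.69 (SE 0.019, adjusted p = 8.7e-13) and -0.78 (SE 0.019, adjusted p = 2.7e-13). Cox6a2 gave 1.5 (SE 0.087, adjusted p = 1.6e-09) in complete and -1.70 (SE 0.087, adjusted p = 4.4e-10) in glutamine-free medium. Uqcrq was 1.61 (SE 0.026, adjusted p = 3.4e-15) in complete and -0.23 (SE 0.026, adjusted p = 2.1e-06) in glutamine-free medium, and Uqcrh -1.55 (SE 0.022, adjusted p = 1.2e-15) and -0.31 (SE 0.022, adjusted p = 2e-08), so for both genes the lines lay nearer to each other without glutamine. In complex III, Uqcrc2 was higher in p53-null cells in both media, by 0.56 in complete and 0.85 in glutamine-free medium, and Uqcrb lower, with -0.28 and -0.49. Atp5j2 was higher in both, by 0.36 in complete and 0.78 in glutamine-free medium, and Cox7a2l by 0.23 and 0.46.

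Genes that work beside the members were counted in the same way, and their counts are to be read beside the 50% of all tested genes that rose and 32% that fell in p53-null cells, and 46% and 44% in WT cells. Of the 4 subunits of complex II, which takes electrons from succinate, 3 fell and 1 rose in p53-null cells and 3 fell and 1 rose in WT cells. The falls included Sdhb, its iron-sulfur subunit, with changes of -0.44 in p53-null and -0.14 in WT cells, and Sdhc, a membrane anchor, with -0.14 in p53-null and -0.38 in WT cells, whereas Sdhd, the other anchor, rose with 0.34 in p53-null and 0.32 in WT cells. Of the 4 assembly factors of complex II, 1 fell and 2 rose in p53-null cells and 1 fell and 2 rose in WT cells. Sdhaf2 rose with 0.50 in p53-null and 0.64 in WT cells and Sdhaf1 with 0.25 in p53-null and 0.36 in WT cells, and Sdhaf4 fell with -0.40 in p53-null and -1.05 in WT cells.

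Assembly factors of the other complexes went both ways. Of 8 for complex I outside the name rule, 1 fell and 5 rose in p53-null cells and 2 fell and 5 rose in WT cells. Tmem186 rose in both lines, with changes of 0.38 in p53-null and 0.66 in WT cells, as did Foxred1, with 0.28 in p53-null and 0.67 in WT cells, and Tmem126b gave 0.65 in p53-null and -0.07 in WT cells, the second not called. Of 6 for complex III, 2 fell and 1 rose in p53-null cells and 1 fell and 2 rose in WT cells. Uqcc1 rose with 0.58 in p53-null and 0.83 in WT cells, Uqcc2 fell with -0.74 in p53-null and -0.56 in WT cells, and Uqcc3 gave 0.08 in p53-null and 0.15 in WT cells, called in WT cells at an adjusted p of 0.047 in the limma fit and lost under most alternatives. Of 20 for complex IV, 8 fell and 8 rose in p53-null cells and 5 fell and 11 rose in WT cells, so 40.0% rose in p53-null and 55.0% in WT cells. Sco2, a copper chaperone of the enzyme and a known target gene of p53, averaged 4.27 ± 0.387 in p53-null glutamine-free, 2.41 ± 0.341 in p53-null complete, 4.14 ± 0.308 in WT glutamine-free and 0.742 ± 0.294 in WT complete cells (mean RPKM ± SD). It rose in both lines, with 0.63 in p53-null and 1.57 in WT cells, as did the other copper chaperone Sco1, with 0.68 in p53-null and 1.47 in WT cells, and Coa4, with 1.18 in p53-null and 0.79 in WT cells. Of 5 for complex V, 1 fell and 2 rose in p53-null cells and 2 fell and 3 rose in WT cells. Atpaf2 rose with 0.71 in p53-null and 0.82 in WT cells and Tmem70 with 0.32 in p53-null and 0.57 in WT cells. Atpaf1 read 5.0, 12.1 and 4.77 RPKM in WT glutamine-free against 4.07, 3.82 and 3.26 RPKM in WT complete libraries. Its WT change of 0.71 was called, but not without the second glutamine-free library (0.32, adjusted p = 0.15), nor without the second (0.73, adjusted p = 0.056) or the third (0.64, adjusted p = 0.085) complete one.

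Of 12 tested electron carriers and enzymes of coenzyme Q synthesis, 4 fell and 6 rose in p53-null cells and 1 fell and 9 rose in WT cells. The share that rose was 50% in p53-null cells, as over all genes, and 75% in WT cells. Cycs, cytochrome c, which carries electrons between complexes III and IV, measured 55.8, 58.3 and 57.0 RPKM in p53-null glutamine-free against 55.0, 55.9 and 54.7 RPKM in p53-null complete libraries, and 85.7, 84.4 and 85.8 RPKM in WT glutamine-free against 20.2, 20.3 and 19.8 RPKM in WT complete libraries. As with Uqcrq, the WT complete libraries were the low ones. Its change was 0.05 (SE 0.018, adjusted p = 0.031) in p53-null cells, which was lost when any one of 4 p53-null libraries was left out (adjusted p of 0.064 to 0.15) and turned to -0.06 under median centring, and 2.03 (SE 0.018, adjusted p = 1.6e-17) in WT cells. Coq10b, which binds coenzyme Q, rose with 0.79 in p53-null and 1.2 in WT cells, and Pdss1, which makes the tail of coenzyme Q, with 0.17 in p53-null and 0.87 in WT cells, the first not called under median centring (0.07, adjusted p = 0.19) or quantile normalization (0.06, adjusted p = 0.22).

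Of 12 regulators of respiratory genes, 1 fell and 7 rose in p53-null cells and 3 fell and 6 rose in WT cells. The shares that rose, 58.3% and 50%, were near those of all genes. Tfb2m, a factor that starts transcription of mitochondrial DNA, averaged 19.9 ± 0.513 in p53-null glutamine-free, 11.2 ± 0.244 in p53-null complete, 20.8 ± 0.454 in WT glutamine-free and 5.20 ± 0.169 in WT complete cells, and rose with 0.77 in p53-null and 1.81 in WT cells. Polrmt, the mitochondrial RNA polymerase, gave 0.08 in p53-null and 0.73 in WT cells, the first called only with libraries rescaled to one sum (0.11, adjusted p = 0.022) among the scalings, and at -0.02 under median centring. Pprc1, a coactivator related to PGC-1, gave 0.10 in p53-null and 0.81 in WT cells, the first turning to -0.01 under median centring. Of 11 markers of mitochondrial content, 6 fell and 3 rose in p53-null cells and 3 fell and 7 rose in WT cells, shares of 54.5% lower in p53-null and 63.6% higher in WT cells. Hspd1, the matrix chaperonin, fell with -0.32 in p53-null cells, a call lost after quantile normalization (-0.05, adjusted p = 0.075), and rose with 1.0 in WT cells. Timm23, an import channel of the inner membrane, rose with 0.57 in p53-null and 1.19 in WT cells, and Tomm40, the pore of the outer membrane, gave -0.06 in p53-null and 0.80 in WT cells, the first not called. In p53-null cells these content markers had a median change of -0.09, beside -0.14 for the members, and in WT cells 0.39 beside -0.13. The part of mitochondrial content in the members' changes was not tested.

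Counting without strand leaves some members uncertain. All 88 have coordinates in GENCODE M21 (GRCm38), and in 29 some exon sequence lies under a gene on the other strand, in 4 of them over 25% (Ndufaf2 65.6%, Ndufb6 39.0%, Atp5o 35.6% and Ndufa13 30.0%). Reads of such pairs cannot be told apart with this kit. In 23 members an annotated pseudogene matches at least 100 bases at 95% identity or more, with up to 9 for Atp5l, and how the authors counted reads shared by such copies is not given in the sources used here. Of the members that changed most, Ndufa12 and Atp5g1 have 1 such pseudogene each, and Ndufaf4, Uqcrq and Uqcrh have none. Without the members that have such a pseudogene or over 25% of exon sequence under another gene, 62 were left, and the counts were 32 lower and 8 higher in p53-null cells and 31 lower and 14 higher in WT cells on withdrawal.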

How the data were processed

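The authors deposited RPKM values per gene for 12 libraries. Per the labels' protocols, they were made from 0.5 ug of Trizol-extracted total RNA with a TruSeq RNA kit V2, which does not mark strand. The submitters' processing notes name CASAVA 1.8, HISAT2 2.0.4, Partek and build mm10, but how genes were counted and with which annotation is not given in the sources used here. The libraries' read depth is not stated, and the steps between low values fitted 37.74 to 46.86 M reads per library, but only 53.0 to 57.5% of values below 0.5 RPKM were whole multiples within 0.05, so no reads were recovered and no interval rests on depth. All 19439 entries were read, and 11461 with at least 1 RPKM in at least 3 libraries were fitted with limma 3.58.1 in R 4.3.3 on log2(RPKM + 1), with 4 group means, a mean-variance trend and Benjamini-Hochberg adjustment within each comparison at 0.05. Alternatives were a pseudocount of 0.1, no filter on low values, libraries rescaled to one sum, quantile normalization, median centring, no trend, a replicate block, leaving out each library, subunits only, and members without near-identical pseudogenes or opposite-strand genes. The fit was tested on simulated data with independent libraries and few changed genes. That setting is unlike these libraries, where most genes were called, so it does not vouch for the calls. Coordinates came from GENCODE M21 and promoters from RefSeq (GRCm38.p6, the same assembly as mm10), and pseudogenes were matched with blastn 2.17.0. The members and gene lists were chosen with earlier results of these data known. Named genes were the largest called rise and fall of each complex in each comparison with a mean of at least 2 RPKM, the 5 largest differences of response in each direction, fixed core subunits and isoform pairs, and up to 3 genes of each list, and exceptions are marked in the text or named for an overlap. A gene that this rule names is not reported here.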

Additional observations from a re-analysis of the deposited data

Results flagged for a closer look

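The response to glutamine withdrawal differed between the lines at 34 members reported under the rule for named genes, by the limma test of the difference itself (p53-null response minus WT response, log2 units). Values above 0 mean a higher response in p53-null cells than in WT cells, and values below 0 a lower one. In complex I the values above 0 were Ndufv3 1.06, Ndufaf3 0.86, Ndufb10 0.69, Ndufa3 0.60 and Ndufa4 0.46, and those below 0 were Ndufaf4 -2.08, Ndufa12 -1.41, Ndufaf8 -0.58, Ndufaf1 -0.47, Ndufs1 -0.32, Ndufv1 -0.30 and Ndufs4 -0.13. In complex III the values above 0 were Uqcrh 1.24, Uqcr11 0.32, Uqcrc2 0.28, Uqcrfs1 0.26 and Uqcrc1 0.17, and those below 0 were Uqcrq -1.84 and Uqcrb -0.21. In complex IV the values above 0 were Cox8a 0.54, Cox6c 0.35, Cox6a1 0.27, Cox6b1 0.24, Cox7a2l 0.23 and Cox4i1 0.15, and those below 0 were Cox6a2 -3.20, Cox5a -0.76 and Cox7a2 -0.11. In complex V the values above 0 were Atp5j2 0.42, Atp5k 0.22 and Atp5c1 0.061, and those below 0 were Atp5g1 -1.46, Atp5g2 -0.17 and Atp5b -0.12. Of all tested genes, 46.4% had a called difference above 0 and 38.4% one below 0, so a called difference was the usual case in these libraries. Of the members named outside that rule, Ndufv2 0.59, Atp5s 0.45 and Atp5o 0.090 lay above 0 and Atp5l -0.17, Ndufc1 -0.29, Ndufaf2 -0.58 and Ndufab1 -0.80 below 0 and were also called. The call of Cox7a2 was lost with libraries rescaled to one sum (-0.07, adjusted p = 0.14). Under median centring the value of Atp5c1 was -0.039, and after quantile normalization that of Atp5b was 0.10.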

How the results depend on the processing

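Withdrawal lowered more members than it raised in both lines under every alternative run. The member medians, in log2 units, moved most with the scaling. In p53-null cells the median was -0.18 after quantile normalization, -0.25 under median centring and -0.11 without members with pseudogenes or opposite-strand genes. Higher calls there fell to 4 under median centring and 6 with subunits only, and lower calls to 32 without members with such copies. In WT cells the median was -0.22 after quantile normalization. Between the lines in complete medium it was 0.16 with libraries rescaled to one sum, 0.13 after quantile normalization, 0.017 under median centring and 0.16 without members with such copies, with 16 lower calls. In glutamine-free medium the same settings gave 0.19, 0.081, -0.089 and 0.16, with 19 lower calls, and subunits only -0.031. The difference of the responses had a median of -0.11 under median centring. The 2 settings that drop members also leave fewer to count, and both were chosen after seeing the data.

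Of all tested genes, 50% rose and 32% fell in p53-null cells, against 39.5% and 43.5% under median centring. Between the lines in glutamine-free medium 51.4% were higher and 40% lower, against 43.6% and 47.1% under median centring and 58.3% and 33.1% with one sum. The difference of the responses had 46.4% and 38.4%, against 40.2% and 44.8% after quantile normalization and 40.3% and 44.9% under median centring.

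Some named genes changed sign. Median centring moves every gene of a library by the same amount, and in p53-null cells it took the median of all tested genes from 0.08 to -0.02. The cause of sign changes under the other scalings was not tested. In p53-null cells on withdrawal the log2 changes under median centring were Uqcrh -0.058, Uqcrfs1 -0.018, Cox4i1 -0.036, Cox6b1 -0.078, Cycs -0.060 and Pprc1 -0.0095, and after quantile normalization Ndufv3 -0.11, Uqcrfs1 -0.029, Atp5b 0.12, Cycs -0.042 and Pprc1 -0.070. In WT cells quantile normalization gave Cox7a2l -0.084, Ndufs4 -0.11 and Ndufs1 -0.076. Between the lines in glutamine-free medium, median centring gave Uqcr11 -0.044, Ndufa4 -0.11, Atp5g3 -0.052, Sdhc -0.037, Uqcc2 -0.12 and Tomm40 -0.073, and one sum Uqcrfs1 0.035 and Tfb2m 0.083. For the difference of the responses, quantile normalization gave Atp5sl -0.19 and Atp5b 0.10, and median centring Atp5c1 -0.039 and Sdhd -0.083. Among the other values of named genes under the alternatives, 91 gained and 90 lost a call and 6158 kept direction and call.

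Leaving out each library in turn gave medians of -0.16 to -0.13 in p53-null and -0.15 to -0.12 in WT cells, 0.043 to 0.064 between the lines in complete and 0.013 to 0.062 in glutamine-free medium, the last being lowest without the first WT glutamine-free library, and -0.033 to 0.023 for the difference. Counts on withdrawal were 10 to 12 higher and 50 to 53 lower in p53-null cells and 20 to 23 and 46 to 47 in WT cells. The titles give every group replicate numbers 1 to 3, but same-numbered libraries did not deviate together (correlations of -0.106 to 0.0556). The main fit therefore has no block, although such correlations cannot settle whether same-numbered libraries were handled together. With the replicate block, 11 members rose and 51 fell in p53-null cells, 22 and 46 in WT cells, 40 were higher and 33 lower in complete medium and 39 and 38 in glutamine-free medium, and the difference had 33 and 32. The block also called Cox7a2l in WT (0.04, adjusted p = 0.021) and Polrmt in p53-null cells (0.08, adjusted p = 0.04). With 3 libraries a group and 1 line a genotype, these data limit what can be said of genotype.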
